A study of Mus musculus with 2 samples.

Results

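Pancreatic islets hold insulin-producing β-cells and smaller numbers of somatostatin-producing δ-cells, α-cells that make glucagon and γ-cells that make pancreatic polypeptide. A mature islet cell is known mainly by the hormone it makes, and the somatostatin of δ-cells restrains the release of insulin and glucagon. Barcodes that carry insulin and somatostatin mRNA at once therefore bear the messages of cell types that are normally told apart. In droplet sequencing a barcode marks the RNA caught in a droplet, which usually holds 1 cell but can hold more.

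The barcodes described here, called Ins+Sst barcodes, were chosen by their hormone content. Each had at least 1000 UMIs (unique molecular identifiers, each standing for 1 captured mRNA molecule) and at most 20% mitochondrial UMIs. Ins1 and Ins2 together made up at least 3% of its UMIs, Sst at least 0.3% and Gcg less than 4%. They numbered 96 of the 1761 barcodes that passed the filter, or of 1978 in all. Of these, 71 came from the Tg7 library and 25 from the Wild-type library.

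Islets were taken from mice aged 12 weeks, and each genotype gave 1 library, made with the 10x Genomics droplet system. Per the labels the mice were C57Bl6 males. Per the study's methods the Wild-type and Tg7 mice both carried a rat Ins2-Cre allele with a Rosa26-floxed-Stop-tdTomato reporter, which turns on tdTomato where Cre has acted. Tg7 mice in addition overexpressed miR-7a2, a gene of the microRNA miR-7a, in β-cells. With 1 library per genotype a difference between genotypes cannot be told apart from a difference between libraries, no test across samples was possible, and the intervals below, all at 95%, describe counting error alone.

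The microRNA that sets the Tg7 library apart is shown because its seed, the bases by which it pairs with its targets, is what the transgene supplies. RefSeq lists this mature sequence for 2 mouse genes on GRCm38.p6, Mir7-2 at chr7:78888295-78888317 on the plus strand and Mir7-1 at chr13:58392841-58392863 on the minus strand. The seed, bases 2 to 8, is in capitals. The RNA libraries were counted per gene and give no level for the mature microRNA.
mmu-miR-7a-5p: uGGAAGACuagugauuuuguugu

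Ins+Sst barcodes made up 7.06% of the 1006 passing Tg7 barcodes (exact binomial interval 5.55 to 8.82%) and 3.31% of the 755 passing Wild-type barcodes (2.15 to 4.85%). Barcodes with Sst but without insulin (insulin below 3%, other limits the same) were 22 in Tg7 and 31 in Wild-type. Ins+Sst barcodes were thus 76.3% of 93 Sst barcodes in Tg7 (66.4 to 84.5%) and 44.6% of 56 in Wild-type (31.3 to 58.5%). With a stricter Sst limit of 1% the shares of passing barcodes were 4.67% and 1.85%, again higher in Tg7. The insulin-only barcodes, with insulin at 3% or more and Sst below 0.3%, numbered 554 in Tg7 and 473 in Wild-type. These, and the Sst barcodes without insulin (the Sst reference), serve as the references below.

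The hormone values that chose the barcodes are given as a description. Insulin took a median of 22% of the UMIs of a Tg7 Ins+Sst barcode (range 3.95 to 41.6%) and 48.3% of a Wild-type one (20.1 to 65.5%). The insulin-only medians were 28.4% and 64.0%. Sst took a median of 1.52% in Tg7 (0.309 to 9.14%) and 1.33% in Wild-type (0.366 to 4.09%), against 13.4% and 11.7% in the Sst barcodes without insulin. Insulin thus lay somewhat below the level of its own reference, and Sst far below that of its own, as a share. As numbers of molecules the Sst difference was smaller, with medians of 582 Sst UMIs per barcode in Tg7 and 682 in Wild-type. The Sst barcodes without insulin had medians of 951 and 988.

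**Figure D1:**
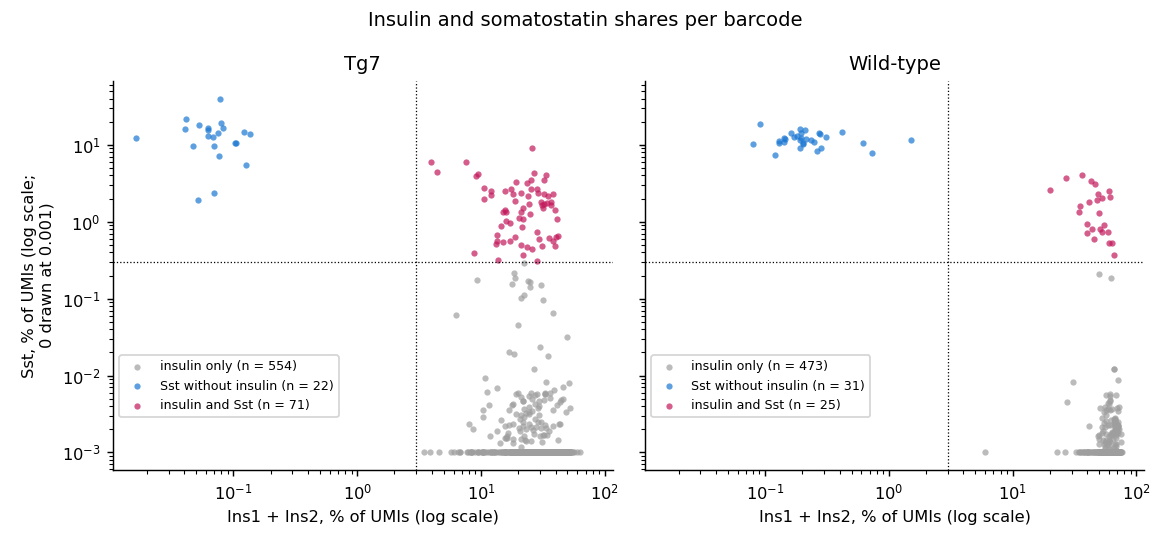
Insulin (x axis) and Sst (y axis) as percent of each barcode's UMIs, both on log scales, in Tg7 (left) and Wild-type (right), with dotted lines at the limits of 3% and 0.3%. The 71 Tg7 and 25 Wild-type Ins+Sst barcodes lie to the right of an empty stretch in insulin, whereas 11 Tg7 and 2 Wild-type barcodes sit between 0.1 and 0.3% Sst, just under the Sst limit.

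The insulin limit fell in a gap. The lowest Ins+Sst barcode held 3.95% insulin in Tg7 and the highest Sst barcode without insulin held 0.137%. In Wild-type the corresponding values were 20.1% and 1.51%. At the Sst limit the barcodes were closer together, with 0.309% just inside and 0.290% just outside in Tg7, and 0.366% and 0.207% in Wild-type. At the Gcg limit the values were 3.98% inside and 5.15% outside in Tg7, and 3.15% and 7.21% in Wild-type.

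RNA released from broken cells can add hormone UMIs to any droplet. Macrophage and endothelial barcodes, which should make neither hormone, had a median of 0 Sst in both libraries and medians of 0.0384 to 0.231% insulin, and none of the 23 and 8 macrophage or 9 and 23 endothelial barcodes of Tg7 and Wild-type reached either limit. The highest values in these cells were 1.57% insulin and 0.0356% Sst. The 2 libraries shared 0 barcodes.

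Ins+Sst barcodes were deep. They held a median of 37987 UMIs in Tg7 (range 8625 to 96863) and 52208 in Wild-type (2952 to 93064). The insulin-only medians were 28182.5 and 49490, and those of the Sst barcodes without insulin 6616 and 8136. In Tg7, 67.6% of the Ins+Sst barcodes lay above the insulin-only median, and in Wild-type 52.0%. Only 11.3% and 12.0% lay above the insulin-only 90th percentile. Apart from 3 Wild-type barcodes under 5000 UMIs, each held 8625 UMIs or more.

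**Figure D2:**
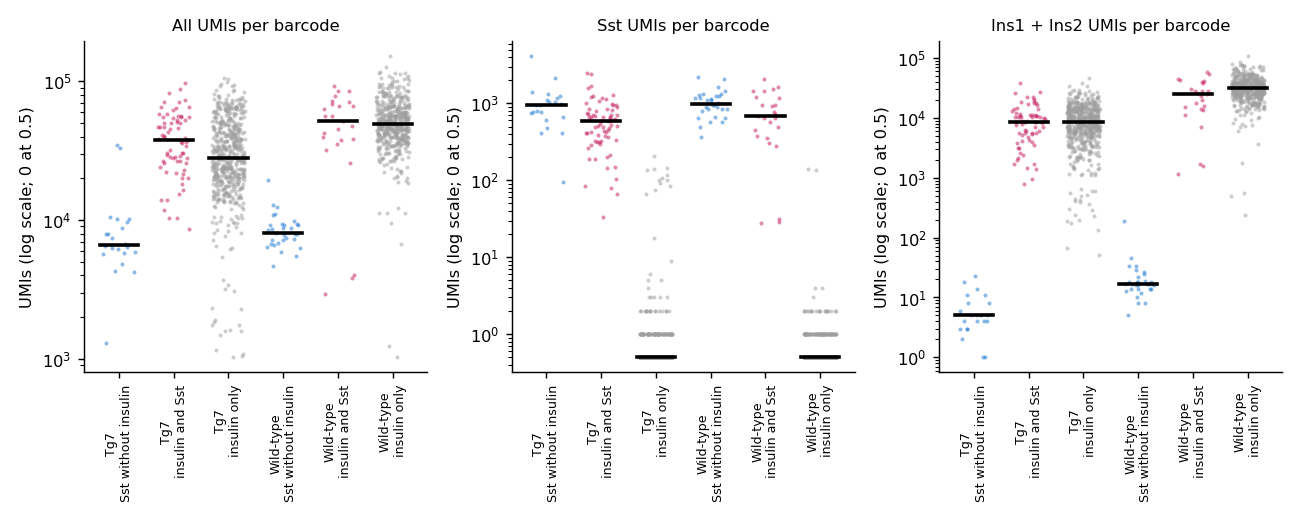
All UMIs, Sst UMIs and insulin UMIs per barcode (y axes, log scale) for the 3 kinds of barcodes in each library, with a point per barcode and a bar at the median. Ins+Sst barcodes have depths near the insulin-only barcodes (medians 37987 and 52208) and Sst UMIs near the Sst barcodes without insulin (medians 582 and 682).

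Barcodes that hold RNA of more than 1 cell (doublets) were kept, and the caller Scrublet was run as a check. It marked 0 of 71 Tg7 and 1 of 25 Wild-type Ins+Sst barcodes, and 14 of 1006 and 6 of 755 passing barcodes in all. The median Scrublet score of Ins+Sst barcodes was 0.0209 in Tg7 and 0.0158 in Wild-type. It was 0.0127 and 0.0102 in insulin-only barcodes, and 0.00535 and 0.00101 in Sst barcodes without insulin, so the score was highest in the Ins+Sst barcodes in both libraries.

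The mean UMIs of a gene per Ins+Sst barcode were then set beside the sum of its means in both references. Over 9380 genes in Tg7 the median ratio to that sum was 0.976, and 98.8% of the genes were within 2-fold of it. In Wild-type the median over 8468 genes was 0.917, with 95.7% within 2-fold. Insulin-only barcodes alone were close too, compared as shares of non-hormone UMIs over genes with at least 100 UMIs. In Tg7 84 of 9350 genes were 2-fold or more above them and 29 below, and in Wild-type 231 and 261 of 8375. Closeness within 2-fold is thus not particular to the sum. Rbp4, a gene of the δ list below, had a mean of 40.1 UMIs per Tg7 Ins+Sst barcode. It had 37.4 in the Sst reference and 2.80 in the insulin-only one, a ratio of 0.998 to the sum. Nkx6-1, a β-cell transcription factor, had means of 3.94, 0.273 and 3.71, a ratio of 0.991. In Wild-type the ratios were 0.826 for Rbp4 and 0.912 for Nkx6-1. Over the β-cell genes listed below the median ratio was 1.07 in Tg7 (17 genes) and 0.724 in Wild-type (21 genes). Over δ-cell genes it was 1.24 (5 genes) and 1.16 (2 genes). Sst itself fell short of the sum at 0.610 in Tg7 and 0.754 in Wild-type, and Hhex exceeded it at 1.37 and 1.49. The total UMIs were below the sum of the references' mean totals, at 0.930 in Tg7 and 0.824 in Wild-type. With medians in place of means these ratios were 1.09 and 0.906. For non-hormone UMIs they were 0.948 and 0.895 with means and 1.09 and 1.10 with medians. Whether an Ins+Sst barcode held 1 cell or more was not tested, and neither was the part this has in the values that follow.

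**Figure D3:**
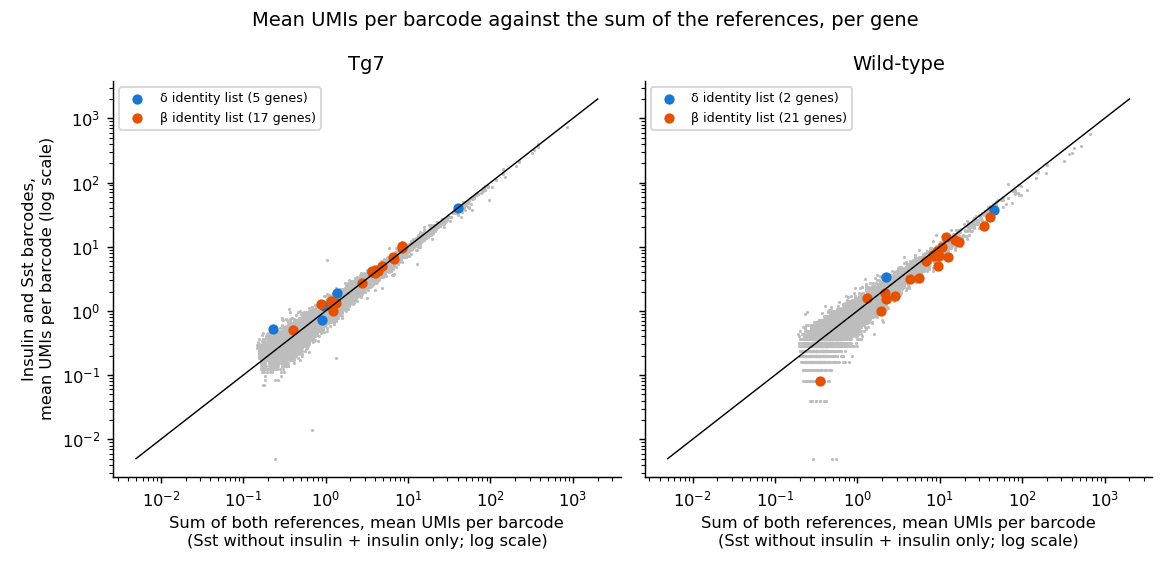
Mean UMIs per Ins+Sst barcode (y axis) against the sum of the means in Sst barcodes without insulin and in insulin-only barcodes (x axis), both on log scales, with a point per gene that had at least 100 UMIs over the 3 kinds of barcodes and a line of equality. In Tg7 the median gene lies at 0.976 of the sum and in Wild-type at 0.917, where 95.2% of the 21 β-cell genes shown are within 2-fold of the line.

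For the comparisons of levels, UMIs were summed over each kind of barcode and divided by the sum of UMIs outside the 7 hormone genes Ins1, Ins2, Gcg, Sst, Ppy, Pyy and Iapp. Levels are given as CPM, here UMIs per 1000000 non-hormone UMIs. A gene was counted as different where the ratio of levels was 2-fold or more and both kinds together held at least 20 UMIs. A gene at 0 was set to a floor of 3 UMIs over the kind of barcode, which makes its ratio a lower bound.

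δ-cell genes set Ins+Sst barcodes apart from insulin-only barcodes. Of the 12 genes of the δ list, 7 could be compared in Tg7 and 6 of them were at least 2-fold higher in Ins+Sst barcodes, with a median log2 ratio of 3.41. In Wild-type 3 of 4 were at least 2-fold higher, with a median of 5.59. Across all genes 2.97% of 12169 were at least 2-fold higher and 2.15% lower in Tg7, with a median log2 ratio of 0.05. In Wild-type 6.91% of 11236 were higher and 4.73% lower, with a median of 0.05.

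Hhex, a transcription factor that δ-cells need, had 135 UMIs in Tg7 Ins+Sst barcodes, or 78.9 CPM, and 12 UMIs in insulin-only barcodes, or 1.13 CPM. The ratio was 69.7 (38.6 to 138). In Wild-type it had 83 UMIs (156 CPM) in Ins+Sst barcodes and 1 UMI over the 473 insulin-only barcodes, a ratio of 1261 with a counting interval of 220.2 to 50403. At least 1 Hhex UMI was found in 47 of 71 Tg7 Ins+Sst barcodes (66.2%, 54.0 to 77.0%) and in 21 of 25 Wild-type ones (84.0%, 63.9 to 95.5%). Insulin-only barcodes held fewer non-hormone UMIs, with medians of 15205.5 and 14489 against 22027 and 22988 in Ins+Sst barcodes. Among insulin-only barcodes the Hhex shares were 1.62% and 0.211%. After each barcode was thinned to 2000 non-hormone UMIs, leaving out the shallower ones (0 and 2 Ins+Sst, 15 and 2 insulin-only), they were 11.3% and 30.4% against 0.186% and 0 of 471, which allows a share of up to 0.637%. This limit, here and below, is 3 counts over the number of barcodes, and it limits barcodes with a UMI, not cells that express the gene. The Hhex signal was thus spread over most Ins+Sst barcodes, and no Tg7 barcode gave more than 7 of its UMIs.

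Rbp4, which encodes retinol-binding protein 4 and is abundant in mouse δ-cells, was found in 71 of 71 Tg7 and 24 of 25 Wild-type Ins+Sst barcodes. Its median was 33 UMIs per Tg7 barcode (1 to 123) and 26 per Wild-type barcode (0 to 107). Its level was 11.4 times that of insulin-only barcodes in Tg7 (10.7 to 12.1) and 97.5 times in Wild-type (81.8 to 117). The level in Ins+Sst barcodes was near 1662 CPM in Tg7 and 1760 in Wild-type, so the ratios differed mainly through the insulin-only barcodes, which held 146 CPM in Tg7 and 18 in Wild-type.

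Other δ-list genes were fewer in UMIs and pointed the same way. The fatty acid receptor gene Ffar4 was 6.71 times higher than in insulin-only barcodes in Tg7 (4.44 to 10.1) and 23.7 times in Wild-type (12.2 to 47.6). The receptor phosphatase gene Ptprz1 was 10.6 times higher in Tg7 (7.38 to 15.4) and at least 91.2-fold higher in Wild-type, where 18 UMIs stood against 0, short of the 20 that a count required. Spock3, which encodes an extracellular proteoglycan, was 19.4 times higher in Tg7 (8.46 to 49.6). Casr, the calcium-sensing receptor gene, was the δ-list gene of Tg7 that was not 2-fold different, at 1.80 (1.22 to 2.62). The leptin receptor gene Lepr and the cholinesterase gene Bche each had 1 UMI in Tg7 and 0 in Wild-type Ins+Sst barcodes, and Ghsr, the ghrelin receptor gene, had 12 and 4.

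Of genes with at least 100 UMIs, the 5 in Tg7 with the largest excess over insulin-only barcodes were Ly6h, Hhex, Ppp1r17, Ehf and Spock1. Ly6h, which encodes a membrane-anchored protein of neurons, was 90.5 times higher in Tg7 (51.7 to 173), and its level of 111 CPM compares with 398 in Sst barcodes without insulin. Ppp1r17, a phosphatase regulator, was 58.8 times higher (30.6 to 127). Ehf, an epithelial transcription factor gene, was 26.0 times higher in Tg7 (16 to 44.0) and 20.7 times in Wild-type (12.9 to 33.5). In Wild-type the 5 highest were Rbp4, Cd24a, Stxbp5l, Hspb1 and Gpx3, with Cd24a, which encodes a surface glycoprotein, at 26.2 (21.1 to 32.4).

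The largest deficits against insulin-only barcodes rested on few UMIs. In Tg7 the 5 lowest genes were Cck, Cenpf, Gtf2h3, Gab2 and Tff3. Cck, the gene of the hormone cholecystokinin, had 1 UMI in 71 Ins+Sst barcodes and 381 in insulin-only barcodes, a ratio of 0.0163 (0.000411 to 0.0911). Cenpf, a gene of dividing cells, had 0 UMIs against 108 and was at least 5.81-fold lower. In Wild-type the lowest included Galnt7, Maneal, Wdr59 and Wdpcp, each with 1 UMI in the 25 Ins+Sst barcodes.

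Compared with the Sst barcodes without insulin, the δ-cell genes of Ins+Sst barcodes stood lower as a share of non-hormone UMIs. In Tg7, 6 of 7 δ-list genes were at least 2-fold lower and none was higher, with a median log2 ratio of -1.46. In Wild-type 6 of 6 were lower, with a median of -1.50. The background was 8.01% of 8828 genes at least 2-fold lower and 12.9% higher in Tg7, and 4.68% of 6006 lower and 12.6% higher in Wild-type. Hhex stood at 0.363 of the reference level in Tg7 (0.243 to 0.559) and 0.468 in Wild-type (0.336 to 0.654). Rbp4 stood at 0.280 (0.259 to 0.302) and 0.261 (0.240 to 0.284).

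The 5 genes lowest against this reference were Tspan8, Calb1, Gadd45g, Hspb1 and Ramp1 in Tg7, and Hspb1, Tspan8, Rbp4, Ly6h and Clu in Wild-type. Tspan8, which encodes a membrane tetraspanin, stood at 0.142 in Tg7 (0.110 to 0.186) and 0.245 in Wild-type (0.181 to 0.330). The small heat shock gene Hspb1 stood at 0.242 (0.184 to 0.322) and 0.203 (0.161 to 0.256). As counts per barcode, in the deeper Ins+Sst barcodes, the order turned for Hhex in both libraries and for Rbp4 in Tg7 only. Hhex had a mean of 1.90 UMIs per Tg7 Ins+Sst barcode against 1.36 in the Sst reference, and 3.32 against 2.23 in Wild-type. Rbp4 had 40.1 against 37.4 in Tg7 and 37.5 against 45.1 in Wild-type.

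β-cell genes set Ins+Sst barcodes apart from the Sst barcodes without insulin. Of the β list, which holds 23 genes including the hormone gene Iapp, 9 of 17 that could be compared were at least 2-fold higher in Tg7 and 1 was lower, with a median log2 ratio of 1.14. In Wild-type 14 of 20 were higher and 0 lower, with a median of 2.39. The β list therefore stood above the medians of all genes, which were 0.01 and 0.08. Of all genes 12.9% were at least 2-fold higher and 8.01% lower in Tg7, and 12.6% and 4.68% in Wild-type.

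Mafa, which drives insulin transcription in mature β-cells, had 127 UMIs in Wild-type Ins+Sst barcodes and 0 in the 31 Sst barcodes without insulin, and was at least 16.5-fold higher. In Tg7 it had 36 UMIs against 0, which gives no direction, since 3 UMIs over the 138219 non-hormone UMIs of the Tg7 Sst reference would be a level as high. Ucn3, the gene of the peptide urocortin 3 with which β-cells act on δ-cells, had 102 Tg7 UMIs and 174 Wild-type UMIs, and none in the Sst reference of either library. It was at least 2.75-fold and 22.6-fold higher. Slc2a2, the glucose transporter gene of mouse β-cells, was at least 2.42-fold higher in Tg7, and 34.4 times in Wild-type (9.39 to 287). For Slc2a2 in Tg7 the log2 ratio was -0.15 when the insulin limit was raised to 6%, which moved the 2 barcodes lowest in insulin into the reference.

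The 5 genes highest against the Sst reference were G6pc2, Ntrk2, Dcdc2a, Prune2 and Tmtc3 in Tg7, and G6pc2, Ero1lb, Bace2, Slc30a8 and Prlr in Wild-type. G6pc2, an islet glucose-6-phosphatase gene, led both, with 351 UMIs against 1 in Tg7 (ratio 28.3, 5.05 to 1123) and 517 against 2 in Wild-type (101, 27.7 to 833). Slc30a8, the zinc transporter gene of insulin granules, had 299 UMIs in either library and was at least 8.05-fold higher in Tg7 and 58.2 times in Wild-type (16 to 482). Prlr, the prolactin receptor gene, was at least 13.4-fold and 41.8-fold higher.

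Against insulin-only barcodes the β list was near level in Tg7 and lower in Wild-type. In Tg7, 0 of 19 genes were at least 2-fold higher and 1 was lower, with a median log2 ratio of -0.04, whose sign turned to 0.04 when levels were scaled to all UMIs. In Wild-type 0 of 21 were higher and 7 lower, with a median of -0.57. Of all genes 2.97% were higher and 2.15% lower in Tg7, and 6.91% and 4.73% in Wild-type. Mafa stood at 0.991 of the insulin-only level in Tg7 (0.677 to 1.41), a direction that turned with all UMIs, and 0.432 in Wild-type (0.359 to 0.515). Ucn3 stood at 0.970 (0.780 to 1.2), which turned likewise, and 0.446 (0.381 to 0.518), and G6pc2 at 0.823 (0.734 to 0.920) and 0.477 (0.437 to 0.521). Scaled to all UMIs, Mafa, Ucn3 and G6pc2 were still lower in Wild-type, but by less than 2-fold. Whether the contrast differed between the genotypes was not tested.

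**Figure D4:**
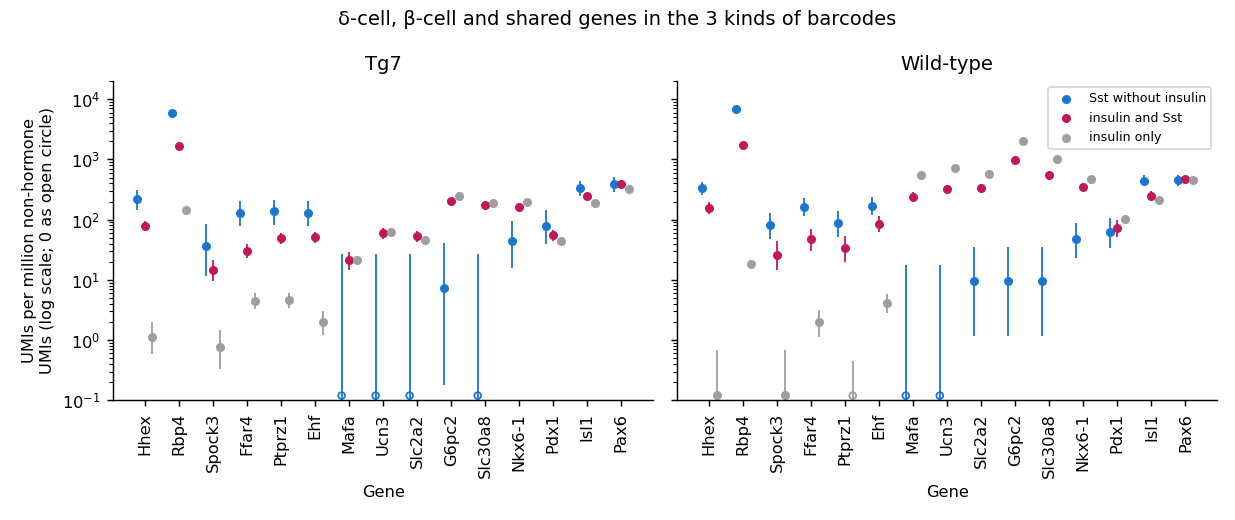
Level in CPM of non-hormone UMIs (y axis, log scale) of δ-list genes with Ehf (Hhex to Ehf), β-cell genes (Mafa to Pdx1) and shared islet factors (Isl1, Pax6), with 95% Poisson intervals for counting error and open circles for 0 UMIs. Ins+Sst barcodes hold genes of both sets, as with Hhex at 78.9 and 156 CPM and Mafa at 21.0 and 238 CPM in Tg7 and Wild-type.

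Genes of both programmes were found in the same barcodes. Hhex and Nkx6-1 were both present in 43 of 71 Tg7 Ins+Sst barcodes (60.6%, 48.3 to 72.0%) and 21 of 25 Wild-type ones (84.0%, 63.9 to 95.5%). The insulin-only shares were 1.62% and 0.211%. In Sst barcodes without insulin it was 1 of 22 in Tg7 (4.55%) and 6 of 31 in Wild-type (19.4%), at median depths of 6616 and 8136 UMIs. Hhex and Mafa were both present in 15 of 71 Tg7 (21.1%) and 15 of 25 Wild-type Ins+Sst barcodes (60.0%). The insulin-only shares were 0.542% and 0.211%. In Sst barcodes without insulin it was 0 of 22 in Tg7 and 0 of 31 in Wild-type, which allows shares of up to 13.6% and 9.68%. After thinning to 2000 non-hormone UMIs, Hhex with Nkx6-1 was left in 1 of 71 Tg7 and 6 of 23 Wild-type barcodes, near the level of 1 UMI, so no difference is read from it.

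Factors that β- and δ-cells share were found in Ins+Sst barcodes of both libraries. Isl1 was in 69 of 71 Tg7 and 21 of 25 Wild-type Ins+Sst barcodes, with 249 and 252 CPM. Its mean was 6 UMIs per Tg7 Ins+Sst barcode, 2.09 in the Sst reference and 3.62 in insulin-only barcodes. The Wild-type means were 5.36, 2.97 and 3.67. Mean non-hormone UMIs were 24104, 6283 and 19133 in Tg7, and 21300, 6683 and 17105 in Wild-type. As a share of these, Isl1 lay below the Sst reference and above the insulin-only level in both libraries. Pax6 stood at 394 and 473 CPM. Pdx1, which both cell types use, had 55.5 and 73.2 CPM, and its ratio to the Sst reference was 0.698 (0.373 to 1.44) in Tg7. In Wild-type that ratio was 1.17 (0.610 to 2.38), whose direction turned with all UMIs. Of the 23 islet transcription factors, 4 of 21 were at least 2-fold higher than in the Sst reference and 2 lower in Tg7, and 4 of 16 higher and 1 lower in Wild-type, beside 12.9% higher and 8.01% lower (Tg7) and 12.6% and 4.68% (Wild-type) of all genes. Against insulin-only barcodes 3 of 21 were higher in Tg7, and 2 of 20 higher and 1 lower in Wild-type, beside 2.97% and 2.15%, and 6.91% and 4.73%, of all genes. Pax4 had 0 UMIs in all 3 kinds of barcodes of both libraries.

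Of the peptide hormones that the rule did not use, Iapp stood near the insulin-only barcodes, and Pyy and Ppy had medians between those of the references. Pyy, the gene of peptide YY, had a median share of 0.569% of the UMIs in Tg7 Ins+Sst barcodes and 0.481% in Wild-type, found in 68 of 71 and 25 of 25. Its medians in insulin-only barcodes were 0.00223% and 0%, and in Sst barcodes without insulin 4.01% and 3.19%. Ppy, the gene of pancreatic polypeptide, had medians of 0.313% and 0.192%, against 2.01% and 1.90% in the Sst reference and 0.00737% and 0% in insulin-only barcodes. In all 6 Tg7 and 1 Wild-type Ins+Sst barcodes held 3% or more Ppy. That Wild-type barcode gave 68.3% of the 15991 Ppy UMIs of its kind. Iapp, whose product is secreted with insulin, had medians of 11.1% and 4.58%, close to the 12.8% and 4.66% of insulin-only barcodes. Ins1 made up a median of 6.15% of the insulin UMIs in Tg7 and 27.3% in Wild-type. The medians of insulin-only barcodes were 5.15% and 30.1%.

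Against insulin-only barcodes 2.97% of all genes were at least 2-fold higher in Tg7 and 6.91% in Wild-type, with 2.15% and 4.73% lower. Of the 11 genes for hormone processing and storage, 1 was at least 2-fold higher in Tg7 and none in Wild-type, and none was 2-fold lower. Against the Sst reference 2 of 10 were higher in Tg7, with a median log2 ratio of 0.62, and 2 of 10 higher and 1 lower in Wild-type, with a median of 0.14, where 12.9% and 12.6% of all genes were higher. Chgb, the chromogranin B gene, was the lower one. It stood at 0.454 of the Sst reference in Wild-type (0.414 to 0.497) but at 1.81 in Tg7 (1.65 to 1.98). The prohormone convertase gene Pcsk1 was 3.46 times higher in Tg7 (1.66 to 8.68) and 2.92 times in Wild-type (1.90 to 4.67). Receptor genes of the somatostatin cell were sparse, with 6 of 16 measured in Tg7 and 4 in Wild-type against the Sst reference. Of these 1 and 2 were higher and 1 and 1 lower. Of all genes 12.9% and 12.6% were higher and 8.01% and 4.68% lower. The adrenergic receptor gene Adra2a was 5.25 times higher in Tg7 (1.77 to 25.7) and 3.77 times in Wild-type (1.97 to 8.12).

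The tdTomato reporter was seen in 20 of 71 Tg7 Ins+Sst barcodes (28.2%, 18.1 to 40.1%) and 10 of 25 Wild-type ones (40.0%, 21.1 to 61.3%). In insulin-only barcodes it was seen in 30.9% and 53.1%. In Sst barcodes without insulin it was seen in 0 of 22 and 0 of 31, which allows shares of up to 13.6% and 9.68% at their lower depth. Its level was 15.8 CPM in Tg7 Ins+Sst barcodes and 28.2 in Wild-type, or 0.733 (0.473 to 1.10) and 0.595 (0.330 to 0.994) of the insulin-only level. Thinned to 2000 non-hormone UMIs, the shares in Ins+Sst barcodes were 4.23% (3 of 71, 0.880 to 11.9%) and 17.4% (4 of 23, 4.95 to 38.8%). In insulin-only barcodes they were 4.82% (3.17 to 6.99%) and 7.01% (4.87 to 9.70%). With so few Ins+Sst barcodes no difference is read from the thinned shares.

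Few genes stood outside both references. In Tg7, 0.102% of 8827 genes, or 9, were at least 2-fold above both, and 0.0227%, or 2, were below both. In Wild-type 0.534% of 5993 genes, or 32, were above both and 0.0334%, or 2, below both. The counting intervals against both references excluded 1 for 1 of the 9 and 15 of the 32 genes above. They did so for 2 of the 2 Tg7 and 1 of the 2 Wild-type genes below. Only Nptx1, the gene of a secreted neuronal pentraxin, was above both in the 2 libraries. It had 30 UMIs in Tg7, 2.42 times the Sst reference on 1 UMI there (0.403 to 98.8) and 2.69 times the insulin-only level (1.69 to 4.19). In Wild-type it had 19 UMIs, 3.70 times (0.892 to 32.7) and 4.25 times (2.41 to 7.14).

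The 6 Tg7 genes farthest above both references were Gast, Nptx1, Per2, Galnt4, Pdik1l and Sgk1. Gast, the gastrin gene, had 447 UMIs, of which 393 lay in 1 barcode. Without that barcode 54 UMIs remained, and raising the insulin limit to 6%, which leaves it out, gave a log2 ratio of -0.76 to insulin-only barcodes in place of 2.27. Per2, a clock gene, had 68 UMIs against 1 in the Sst reference, and was 2.34 times the insulin-only level (1.74 to 3.11). In Wild-type those farthest above included Aqp4, Mirg, Dennd1a, Phlpp2 and Ubxn7. Aqp4, a water channel gene, had 40.9% of its 22 UMIs in 1 barcode. Farthest below both in Tg7 were Cenpf and Stmn1. Cenpf, with 0 UMIs against 1 in the Sst reference, was not among the 2 genes counted. Stmn1 had 13 UMIs at 0.0525 of the Sst reference (0.0240 to 0.111) and 0.335 of the insulin-only level (0.176 to 0.585). In Wild-type those farthest below included Galnt7, which with 1 UMI against 3 in the Sst reference was likewise not counted.

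Where Ins+Sst barcodes lay between the references was measured on the genes that separate them. On a scale from 0 at the level of Sst barcodes without insulin to 1 at that of insulin-only barcodes, 760 genes that were at least 4-fold higher in the Tg7 insulin-only barcodes had a median place of 0.941. The 73 genes at least 4-fold higher in the Tg7 Sst reference had a median of 0.827. In Wild-type the medians were 0.702 over 608 genes and 0.680 over 99. All 4 medians were closer to 1 than to 0, that is, to the insulin-only level. Of the genes higher in insulin-only barcodes, 302 of 760 in Tg7 and 138 of 608 in Wild-type lay beyond 1. Of those higher in the Sst reference, 4 of 73 and 0 of 99 did. The references that set the scale also chose the genes, so the place is a description.

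Ins+Sst barcodes varied along the balance of the hormones. This is a description, since insulin and Sst also chose the barcodes, but neither is in the lists summed here. They were ordered by the share of Sst in the sum of insulin and Sst UMIs and cut into 4 groups. The summed level of the δ list was 967 CPM in the Tg7 group with the least Sst, then 1745, 2372 and 2971 in the group with the most. In Wild-type the same sums were 1336, 1717, 2361 and 2975. Rbp4 held 2845 of the 3232 Tg7 and 937 of the 1110 Wild-type UMIs of the δ list. The sums thus mostly follow that gene, which Gcg-only barcodes also held. As UMIs per barcode the means were 28.9, 40.6, 56.8 and 56.3 in Tg7 and 33.4, 22.3, 57 and 66.7 in Wild-type, so the level rose at each step in both libraries and the count did not. Spearman's rho of the level with the share was 0.61 over 71 Tg7 barcodes and 0.41 over 25 Wild-type barcodes.

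The level of the β list in Tg7 was 3056, 2788, 2648 and 2874 CPM over the 4 groups (rho -0.11), and in Wild-type 9959, 8507, 6778 and 4871 (rho -0.64). The barcodes of each correlation come from 1 library, and their depth moved with the balance as well, with rho of -0.42 in both libraries. The part of depth in these relations was not tested.

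Most β-cell genes stood lower in Tg7 than in Wild-type Ins+Sst barcodes. Of 20 genes of the β list, 11 were at least 2-fold lower in Tg7 and 0 higher, all 20 ratios lay below 1 (17 of 20 when scaled to all UMIs), and the median log2 ratio was -1.09. Across all 9411 genes tested, 4.77% were lower and 5.46% higher, with a median of -0.06. The same contrast gave 16 of 21 lower in insulin-only barcodes, with a median of -1.39, where 5.99% of 12613 genes were lower and 9.93% higher. In Sst barcodes without insulin it gave 2 of 9 lower and 2 higher, with a median of -0.05, where 5.97% of 3231 genes were lower and 2.82% higher. Whether the contrast differed between these kinds of barcodes was not tested. When levels were scaled to all UMIs the median of all genes in Ins+Sst barcodes shifted by 0.52 and that of the β list was -0.57, still below it.

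The 10 genes lowest in Tg7 Ins+Sst barcodes were Cox6a2, Nupr1, Mafa, Sytl4, Ero1lb, Slc2a2, Ucn3, Spc25, G6pc2 and Klhl7. Over Ins+Sst barcodes Mafa had 36 UMIs in 18 of 71 in Tg7 (0 to 4 per barcode) and 127 UMIs in 18 of 25 in Wild-type (0 to 19 per barcode), and its level was 11.3-fold lower (ratio 0.0882, 0.0592 to 0.129). Cox6a2, a respiratory chain subunit gene, had 12 UMIs against 106 and was 28.4-fold lower (ratio 0.0352, 0.0176 to 0.0641). Nupr1, a stress-responsive nuclear protein gene, was 15.6-fold lower and Ero1lb, which helps proinsulin to fold, 7.60-fold lower. For Nupr1 a single barcode held 41.2% of the 131 Wild-type UMIs, and another 44.4% of the 27 Tg7 UMIs. Slc2a2 had 90 UMIs against 177 and was 6.32-fold lower (ratio 0.158, 0.121 to 0.205), with a median of 1 UMI per Tg7 barcode and 6 per Wild-type barcode. Each of these 10 genes was also lower in Tg7 insulin-only barcodes, where the ratio was 0.0384 for Mafa and 0.0461 for Klhl7. Ranges per barcode overlapped between the libraries for each gene given here.

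None of 7 δ-list genes was 2-fold different between the genotypes, though 2 of 7, Casr and Ptprz1, were at least 2-fold higher in Tg7 when scaled to all UMIs. The median log2 ratio was -0.63 (-0.11 with all UMIs). Rbp4 had a ratio of 0.945 (0.877 to 1.02), whose direction turned with all UMIs, TMM factors, an Sst limit of 1% or means over cells. Hhex stood at 0.506 (0.382 to 0.673), just inside the 2-fold limit, and past it with an insulin limit of 6%, with the Scrublet call removed or with means over cells. The Sst reference gave 0.882 (0.808 to 0.962) and 0.652 (0.410 to 1.01) for these genes. In insulin-only barcodes Rbp4 was 8.10 times higher in Tg7 (6.84 to 9.67).

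Genes on the list of marks of immature or dedifferentiated β-cells were at least 2-fold higher in Tg7 Ins+Sst barcodes in 6 of 11 cases and 2-fold lower in 0 (any ratio above 1 in 7 and below in 4), with a median log2 ratio of 1.27. In insulin-only barcodes 10 of 13 were at least 2-fold higher and 1 lower, with a median of 2.20, against the 9.93% and 5.99% of all genes given above. Aldh1a3, a retinaldehyde dehydrogenase gene used as a mark of dedifferentiation, had 213 UMIs in 40 of 71 Tg7 barcodes and 17 UMIs in 5 of 25 Wild-type barcodes, a ratio of 3.90 (2.38 to 6.82). Cd81, a tetraspanin gene of immature β-cells, was 2.75 times higher (2.26 to 3.38), Pdyn, the prodynorphin gene, 2.75 times (2.17 to 3.53) and Serpine2, a protease inhibitor gene, 4.67 times (1.73 to 17.7). The imprinted gene Dlk1 was 2.41 times higher (1.61 to 3.74), but 19 of its 27 Wild-type UMIs came from 1 barcode. For Aldh1a3 and Pdyn 1 barcode held 47.1% and 48.1% of the Wild-type UMIs, and Gast is the other higher gene of this list.

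**Figure D5:**
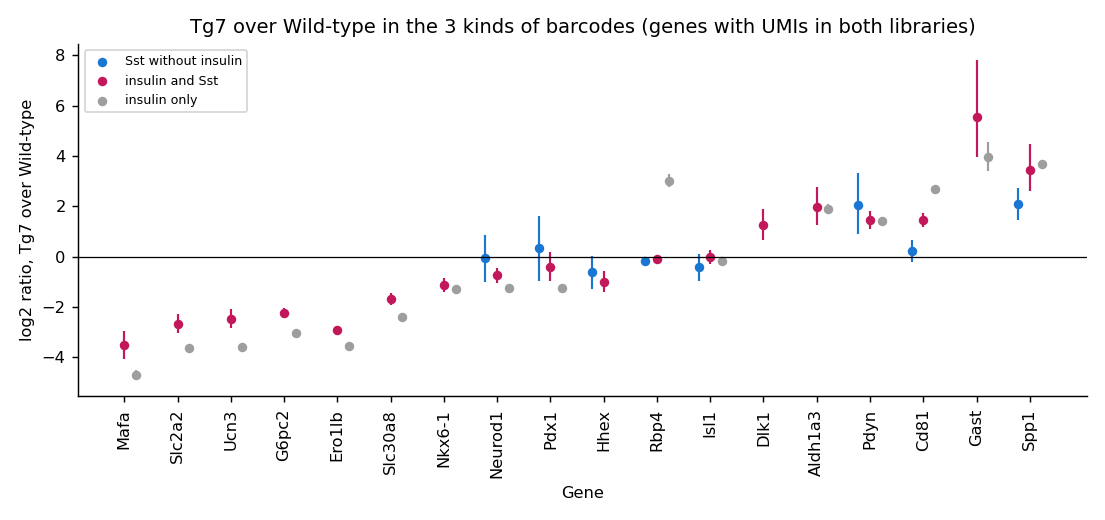
log2 ratio of the level in Tg7 over Wild-type (y axis) with 95% counting intervals, for named genes detected in each library with 20 UMIs or more together, in Sst barcodes without insulin, Ins+Sst barcodes and insulin-only barcodes. In Ins+Sst barcodes Mafa, Slc2a2, Ucn3 and G6pc2 lie below 0, Rbp4 and Isl1 near 0 and Aldh1a3, Pdyn and Cd81 above 0, while 393 of the 447 Tg7 Gast UMIs come from 1 barcode.

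The 10 genes highest in Tg7 Ins+Sst barcodes were Gast, Pcp4l1, Slc5a10, Cartpt, Spp1, Ptger3, Tesc, Serpina7, Cpb2 and Tagln3. Cartpt, the gene of the neuropeptide precursor CART, had 251 UMIs in 58 of 71 Tg7 barcodes and 7 in Wild-type, a ratio of 11.2 (5.34 to 28.0). Ptger3, a prostaglandin receptor gene, had 139 UMIs against 4, a ratio of 10.8 (4.13 to 40.2). Spp1, the osteopontin gene, was 10.9 times higher (6.05 to 22.1), and also 4.25 times in Sst barcodes without insulin (2.77 to 6.67). All 10 were higher in Tg7 insulin-only barcodes too, by 11.4 times (Tesc) to 684 times (Ptger3, on 1 Wild-type UMI).

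Other lists split as follows, beside 5.46% of all genes at least 2-fold higher and 4.77% lower in Tg7 Ins+Sst barcodes. In insulin-only barcodes the shares of all genes were 9.93% and 5.99%. Of 4 γ-list genes other than the hormones 3 were at least 2-fold higher in Tg7 Ins+Sst barcodes and 0 lower, with a median log2 ratio of 2.20, and 4 of 4 when scaled to all UMIs. In insulin-only barcodes 4 of 4 were higher, with a median of 3.52. The list holds Spp1, Aqp4, at 3.07 (1.98 to 5) times the Wild-type level, and Etv1, a transcription factor gene, at 1.52 (1.23 to 1.88). Of 8 glucose-sensing genes 3 were at least 2-fold lower in Tg7 Ins+Sst barcodes and 0 higher, among them Slc2a2 and G6pc2, which are on the β list too. Of 7 genes of the α list 3 were higher and 1 lower, among them Ttr, the transthyretin gene, at 2.27 (2.11 to 2.44). Of the epithelial and mesenchymal genes that the study names, 2 of 10 were lower and 1, Serpine2, higher. Counting any ratio, 7 of these 10 genes were lower and 3 higher, against 4 and 6 when scaled to all UMIs. Cldn4, a tight junction gene, stood at 0.124 (0.0773 to 0.195). Cdh1, the E-cadherin gene, stood at 0.758 (0.614 to 0.940), a direction that turned with all UMIs. Ovol2, an epithelial transcription factor gene, had 7 Tg7 and 8 Wild-type UMIs in Ins+Sst barcodes, and its mesenchymal counterpart Zeb2 had 0 in both.

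Dissociation and stress genes were lower in Tg7 Ins+Sst barcodes in 12 of 12 cases (7 of 12 when scaled to all UMIs), 5 of them by 2-fold or more, with a median log2 ratio of -0.94. Of all genes 4.77% were lower by 2-fold or more, with a median of -0.06. Their summed level had a median of 6070 CPM over Tg7 barcodes (1260 to 17481) and 10951 over Wild-type barcodes (3790 to 24297). In insulin-only barcodes 11 of 12 were lower, with a median of -0.86. The heat shock gene Hspa1a stood at 0.324 (0.278 to 0.377) in Ins+Sst barcodes. These genes moved with genotype beside the β list, and their part in the other differences was not tested.

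The ductal list, of which the keratin gene Krt19 and the chloride channel gene Cftr had 0 UMIs in Ins+Sst barcodes of both libraries, summed to 428 CPM in Tg7 Ins+Sst barcodes (0 to 3397 over barcodes) and 218 CPM in Wild-type (0 to 581). Insulin-only barcodes held 711 and 269 CPM and the Sst reference 933 and 314. In Tg7 2 of 7 ductal genes were at 0 in Ins+Sst barcodes, and in Wild-type 3 of 7. In Ins+Sst barcodes Spp1 gave 387 and Krt7, another keratin gene, 301 of the 732 Tg7 UMIs, and Krt7 83 of the 116 Wild-type UMIs. Of 12 macrophage genes 6 were at 0 in Tg7 and 10 in Wild-type, and their summed level ran from 0 to 398 CPM over Tg7 barcodes and from 0 to 541 over Wild-type ones. C1qa held 92 of the 117 Tg7 UMIs, whereas Cd68 had 2 and Cd74 had 1. Of 8 endothelial genes 6 and 7 were at 0, and of 9 stellate and mesenchymal genes 8 and 9. Of 12 acinar genes 9 and 11 were at 0. Nearly all acinar UMIs were of Cela1, with 35 of 38 and 36 of 36, and it was 43.4 times (16.9 to 142) and 182 times (57.6 to 925) the insulin-only level but below the Sst reference, at 0.105 (0.0616 to 0.180) and 0.246 (0.157 to 0.379). Their part in the results was not tested.

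The split of higher against lower genes depended on the scale. Between the genotypes 514 genes were higher and 449 lower in Ins+Sst barcodes, against 1533 and 113 when scaled to all UMIs and 658 and 321 with TMM factors. Against the Sst reference it was 1143 and 707 in Tg7 (899 and 1017 with all UMIs, 1359 and 533 with TMM factors) and 754 and 281 in Wild-type (201 and 2298 with all UMIs). Against insulin-only barcodes it was 362 and 262 in Tg7 (290 and 323 with TMM factors) and 776 and 532 in Wild-type (1719 and 235 with all UMIs, 562 and 798 with TMM factors).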

How the data were processed

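The authors deposited raw UMI counts per gene and barcode for 2 islet libraries, made with bcl2fastq 2.17.1.14 and Cell Ranger 3.0.2, which aligns with STAR, on mm10. The libraries held 29931777 UMIs over 1123 barcodes (Tg7) and 30829078 over 855 (Wild-type), with 31054 features. How many mice went into each library was not stated. A barcode was kept if it held 1000 UMIs or more, of which mitochondrial genes made up 20% or less, and counts were summed per library and kind of barcode. Ratios of levels carry a conditional exact binomial interval, and shares a Clopper-Pearson interval. No p-value was computed, since each group has 1 library. The ratios and intervals were tested on simulated sums with Poisson counting error alone. Variation between barcodes was not simulated, so that test does not cover genes whose UMIs lie in few barcodes. Scrublet was run in scanpy 1.11.5 and TMM factors came from edgeR 4.0.16. The members, the 19 gene lists and the comparisons were chosen with earlier results of these data known. Beside genes of the lists, those named had at least 100 UMIs over the kinds compared and the largest or smallest ratios: 10 each way between genotypes, 5 each way against each reference, and up to 6 above or below both. Mitochondrial, ribosomal and predicted genes and hormones were left out of that ranking. Some genes that this rule picked are not reported here.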

Additional observations from a re-analysis of the deposited data

Results flagged for a closer look

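Chgb, the chromogranin B gene, went opposite ways in the 2 libraries when Ins+Sst barcodes were set against Sst barcodes without insulin, with a ratio of 1.81 in Tg7 and 0.454 in Wild-type. Both counting intervals exclude 1, and the difference between the libraries was not tested, since each is 1 sample. In insulin-only barcodes its level was 6 times higher in Tg7 than in Wild-type, and in Sst barcodes without insulin 0.868 of it.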

How the results depend on the processing

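No paired analysis was possible because each genotype has 1 library and no test across samples was made. Leaving out a replicate was not possible for the same reason. Removing the Scrublet calls, asking for 3000 UMIs and at most 10% mitochondrial UMIs, or for 5000 UMIs (an alternative chosen after seeing the data) left all 149 results within their limits. For a ratio the limit was its counting interval, so a gene could still cross 2-fold, as Hhex did between genotypes without the Scrublet calls. With an Sst limit of 1% the Ins+Sst share was 4.67% (Tg7) and 1.85% (Wild-type), the share of Sst barcodes in Wild-type 31.1%, and the genes different from the Sst reference in Wild-type 636 in place of 1035.

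With an insulin limit of 6% log2 ratios of Tg7 Ins+Sst barcodes turned for Gast (-6.18 in place of 3.59 against the Sst reference, -0.76 in place of 2.27 against insulin-only) and Slc2a2 (-0.15 in place of 1.28). These rest on the 2 barcodes that change sides. With the mean over cells Wdpcp turned from -3.02 to 0.56 in Wild-type against insulin-only barcodes, where it has 1 UMI.

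Scaled to all UMIs, 2499 genes differed from the Sst reference in Wild-type and 1646 between genotypes (in place of 963), and 22 stood outside both references in Wild-type (in place of 34), as with TMM factors. A minimum of 100 UMIs per gene left 430 and 136 genes against the Sst reference in Tg7 and Wild-type (in place of 1850 and 1035), 113 and 492 against insulin-only (624 and 1308), 161 between genotypes, and 2 and 1 outside both (11 and 34). A minimum of 5 UMIs gave 2307 against the Sst reference in Wild-type, 1244 and 2022 against insulin-only, 1817 between genotypes, and 41 and 170 outside both. Fewer or more genes are tested under these minimums. With the mean over cells 21 and 85 genes stood outside both, and without barcodes with Ppy at 3% or more 3 did in Tg7. For the remaining changes the cause was not tested.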
